A study of Sus scrofa with 12 samples.

Results

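The genes described here are those that the deposited gene table annotates as pseudogenes and that were measurably expressed in interstitial cells of the pig aortic valve, kept in culture. They were chosen by level: a row of biotype pseudogene was a member if its RPKM (reads per kilobase of exon, scaled to the size of the library) was at least 1 in at least 3 of the 12 libraries. This took 264 of the 555 pseudogene rows, among 13046 genes of any biotype that met the same minimum. Of the other pseudogene rows, 192 were at 0 in all 12 libraries and 99 had values above 0 that fell short of the minimum. No contrast between groups entered the choice, so levels below are a description and the comparisons between groups are tests. Only 2 members reached an RPKM of 1 in 1 group alone, ENSSSCG00000024198 and ENSSSCG00000030133, both in Stage 3+KPT, and such members had to be high there.

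Valve interstitial cells are the fibroblast-like cells that keep up the matrix of the valve leaflet and that can take part in its calcification. All groups were grown on glass, which the labels name as the stimulus for calcification, in DMEM medium, and each of the 4 groups had 3 libraries labelled as biological replicates. Cells were taken on day 5 (Stage 1), on day 8 (Stage 2), or at Stage 3 after either DMSO, a solvent (Stage 3+DMSO), or KPT (Stage 3+KPT). KPT is a code for small molecules that block XPO1, a receptor that carries proteins out of the nucleus, and the labels give neither the compound in full nor its dose or exposure time. The labels do not say whether replicates came from separate animals, so p-values measure the spread between these cultures. They name DMSO only at Stage 3, so solvent and stage cannot be told apart in the comparisons of Stage 3+DMSO with the earlier stages.

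A pseudogene is a copy of a gene that is held to have lost the ability to make the full protein. Processed pseudogenes arise when a messenger RNA is copied back into DNA and inserted elsewhere, so they lack the introns of the parent gene, and abundant housekeeping transcripts such as those of ribosomal proteins have left many of them in mammalian genomes. Short reads from the parent messenger RNA can align to such a copy, and the label itself comes from an annotation that can place a working gene in the wrong class. Reads counted on a pseudogene are therefore a statement about where reads were placed.

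Library totals recovered from the values ran from 13188023 to 24724019, and the reads behind a member over all 12 libraries ran from 59 to 332556 with a median of 2944.5. Only 6 members had fewer than 100 reads. Replicates of a group correlated across tested genes with r from 0.985 to 0.994. The labelled cell type was checked on fixed marker lists: all 11 interstitial markers were tested genes, with summed levels of 20899 to 33684 RPKM per library. Endothelial markers summed to 32.7 to 83.8 RPKM, with 4 of 8 tested and no row for CDH5. ERG made up most of that sum, at 25.7 to 67.5 RPKM, and PECAM1 had 4.92 to 12.0. Leukocyte markers summed to 10.8 to 17.2 RPKM, with 3 of 8 tested. Of these, CD14 had 5.38 to 12.9 RPKM and CD68 had 1.10 to 5.58, while CD163 was at 0. Cardiomyocyte markers summed to 0.267 to 1.94 RPKM, with 1 of 6 tested and TNNT2 at 0. In bulk RNA, fewer cells of a type and less RNA per cell cannot be told apart.

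The members were short and nearly free of introns. A single exon was annotated for 69 of 264 members (26.1%), and 172 more (65.2%) had several exons separated only by gaps of at most 30 bp. In 171 of those 172 the largest gap was at most 5 bp, and the median largest gap was 2 bp. Only 23 members (8.71%) had a gap over 30 bp, the sort of distance that an intron spans. Among the 12782 other tested genes, 1034 (8.09%) had a single exon or such short gaps. The median exon length was 562.5 bp in members and 1898 bp in other tested genes. The annotation may have used exon structure to assign the biotype, so this difference describes the label and carries no test.

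Chromosome X held 63 members (23.9%) but 450 of the other tested genes (3.52%). Among all 555 pseudogene rows, expressed or not, 161 (29.0%) lay on X. Names differed by chromosome too: 54 of the 63 members on X (85.7%) carried the name of a sequenced clone, such as CH242-358M12.3, against 10 of the 201 members elsewhere (4.98%).

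**Figure D1:**
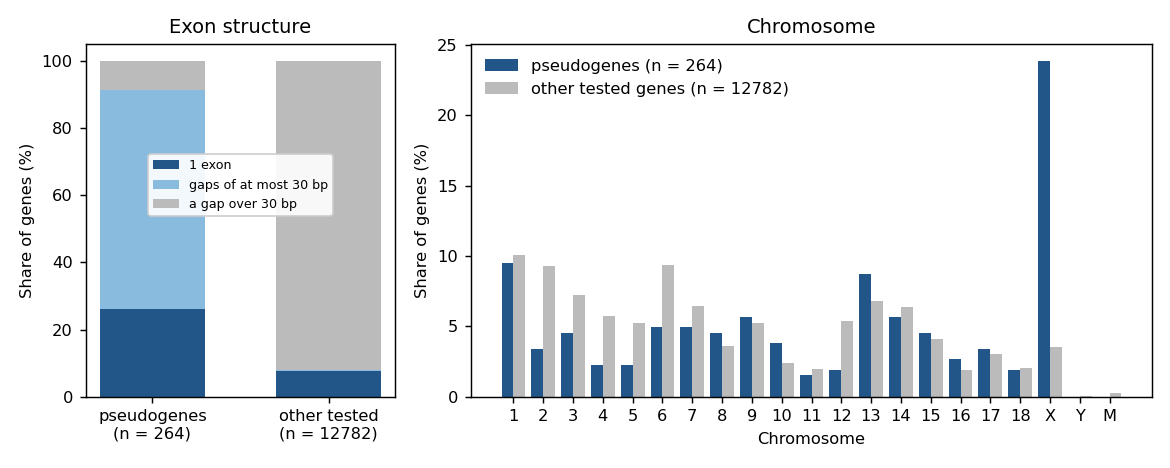
Shares (%) of the 264 expressed pseudogenes and the 12782 other tested genes by exon structure (left, stacked bars) and by chromosome (right, paired bars). Members are mostly single exons or exons with gaps of at most 30 bp, and 23.9% of them lie on X against 3.52% of other tested genes.

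Names were those deposited or, where none or only a clone name was deposited, those of a reference list of gene names or of RefSeq. There was no name beyond the Ensembl ID for 167 members, a clone name for 64, a gene symbol for 28 and a RefSeq LOC number for 5. The class in RefSeq was looked up by that same name, so name and class are not independent sources. The symbols were those of familiar genes. RefSeq's pig annotation lists 25 of the 28 as protein coding, among them NDN, FZD2, FOXC2 and OTUD1, and lists MIC-1 as a pseudogene. PTMAP and SLA-DOB2 had no RefSeq entry under that symbol. The 5 LOC members were 4 transcribed pseudogenes and 1 pseudogene in RefSeq. Among the 28 with a symbol, 23 had short gaps with a largest gap of at most 4 bp, 1 had a single exon and 4 had a longer gap. Their median exon length of 1201.5 bp was more than that of all members. RefSeq thus gives another class than the deposited table for most members with a symbol, and the values below describe these rows whatever their class.

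Most members stood apart from other genes. A gene span overlapped 45 of the 264, and 39 lay wholly inside a protein-coding gene, 21 on its strand and 18 on the other. Exons of another gene were overlapped by 9 members. The library kit keeps strand, but the counting is not stated to use it, so reads of a member and of an overlapping gene may have been placed either way. Beyond those, 4 members lay within 1000 bp of a protein-coding gene, and the median distance of the members that were apart was 38272.5 bp.

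A few members could not be told apart by their reads. Over the 12 libraries, 3 pairs had the same number of reads in every library: ENSSSCG00000027397 and ENSSSCG00000029467 on chromosome 1 with 23527 reads each, ENSSSCG00000023656 and ENSSSCG00000026630 on chromosome 17 with 10458 each, and ENSSSCG00000023113 and ENSSSCG00000030299 on chromosome 15 with 538 each. In another pair, ENSSSCG00000022476 and ENSSSCG00000028864 on chromosome 8, the counts were 30995 and 30994 and differed by at most 2 reads in a library. The last pair lay on different chromosomes, ENSSSCG00000007813 on 3 and ENSSSCG00000029020 on 15, with 1018 and 1025 reads and at most 1 read between them in a library. Exon lengths were equal within each pair. Among 12480 other tested genes with at least 100 reads, 20 had reads equal to those of another gene in all 12 libraries. The members of such a pair are 1 measurement, and counting each pair once moved no count of calls below by more than 5.

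The level of the members spanned the range of the transcriptome. Mean RPKM over the 12 libraries was at least 100 in 48 members, 10 to 100 in 115 and under 10 in 101, and 226 members reached 1 in all 12 libraries. Their median of 17.9 RPKM (quartiles 4.76 and 65.1) lay beside 16.4 RPKM (5.64 and 44.8) in other tested genes. At the edge of the rule, the third-highest library gave 1.03 RPKM for ENSSSCG00000024198, 1.07 for CH242-142L3.2 and 1.09 for CH242-94N2.2 just inside it. Just outside, it gave 0.989 for ENSSSCG00000027086, 0.971 for ENSSSCG00000014769 and 0.969 for ENSSSCG00000030414.

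The most abundant member was ENSSSCG00000000207, with 2 exons of 510 bp in total on chromosome 5 (16183566 to 16184077 as deposited). It had 2997, 3075 and 3202 RPKM in Stage 1, 3073, 3375 and 3504 in Stage 2, 3020, 2874 and 2614 in Stage 3+DMSO, and 2243, 2231 and 2078 in Stage 3+KPT. The 3 KPT libraries were below the 9 others. LOC100624650, a single exon on X, followed with group means of 1698 ± 84.0, 1715 ± 138, 1690 ± 172 and 1214 ± 62.2 RPKM (SD, n = 3) in the same order. ENSSSCG00000016735 had 1754 ± 114, 1870 ± 157, 1694 ± 139 and 953.7 ± 95.6 RPKM. The rest of the 10 highest were ENSSSCG00000004575, ENSSSCG00000010553, ENSSSCG00000030593, ENSSSCG00000010221, ENSSSCG00000009133, ENSSSCG00000012032 and ENSSSCG00000000744, with group means from 303.2 to 1479 RPKM. None of the 10 has a gene symbol in the files.

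Group differences were tested with limma on log2(RPKM + 1), fitted over all 13046 genes. A gene was called where its Benjamini-Hochberg adjusted p was under 0.05, and a log2 fold change is a difference on that scale, where genes of low level appear to change less than they did. The comparisons share groups, so their counts are not independent of each other. Of the 264 members, 205 were called in at least 1 of the 4 comparisons, 59 in none and 12 in all 4. Those called at least once were 77.7% of members and 84.7% of all tested genes, and those called in all 4 were 4.55% and 8.65%.

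From Stage 1 to Stage 2, 68 of 264 members were called (25.8%), against 40.7% of all tested genes. There were 22 higher and 46 lower in Stage 2, against a background of 16.3% and 24.4% of all tested genes. After median-ratio rescaling the counts were 29 higher and 32 lower, and after quantile normalization 29 and 36. The median log2 fold change was -0.09 in members and -0.05 in all tested genes.

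From Stage 2 to Stage 3+DMSO, 71 members were called (26.9%) against 44.1% of all tested genes. On the deposited scale 49 were higher and 22 lower (background 33.0% and 11.1%), but the order turned to 26 higher and 52 lower after median-ratio rescaling and to 28 and 39 after quantile normalization. The rescaling shifted the log2 fold change of a tested gene by a median of -0.16. On the deposited scale the median log2 fold change was 0.15 in all tested genes and 0.05 in members. From Stage 1 to Stage 3+DMSO, 88 members were called (33.3%) against 47.7% of all tested genes. The split of 50 higher and 38 lower (background 30.5% and 17.3%) turned to 31 and 67 after median-ratio rescaling and to 35 and 63 after quantile normalization. The medians were -0.02 in members and 0.10 in all tested genes, and the rescaling shifted a tested gene by a median of -0.11. The counts of called members therefore have no direction at these steps that holds on every scale. After median-ratio rescaling the members' median was -0.09 from Stage 2 and -0.13 from Stage 1, beside 0.006 and 0.0006 in all tested genes. It lay below that of all tested genes at both steps, as on the deposited scale. After quantile normalization the members' medians were -0.06 and -0.12. Single members are described below.

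KPT gave the most calls. Between Stage 3+KPT and Stage 3+DMSO 159 members were called (60.2%), against 60.0% of all tested genes, so the share was that of the background. Of these, 56 were higher with KPT (21.2%) and 103 lower (39.0%), where the background was 30.5% higher and 29.5% lower. The counts were 54 and 104 after median-ratio rescaling and 55 and 98 after quantile normalization. The 56 include ENSSSCG00000024198 and ENSSSCG00000030133, which entered the list through the KPT libraries alone. The median was -0.17 in members and 0.02 in all tested genes.

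The lower calls with KPT gathered among abundant members. Of the 48 with a mean of at least 100 RPKM, 36 were lower with KPT and 7 higher, with a median log2 fold change of -0.56. All 1572 tested genes of that level had 665 lower (42.3%), 496 higher and a median of -0.07. At 10 to 100 RPKM, 43 of 115 members were lower and 25 higher, or 37.4% and 21.7%, beside 28.5% and 35.8% of all tested genes of that level. Under 10 RPKM 24 of 101 were lower and 24 higher, or 23.8% each way, near the 26.7% and 23.1% of all tested genes there. The 80 tested protein-coding ribosomal protein genes, whose messenger RNAs are common parents of processed pseudogenes, had 74 lower and 2 higher with KPT, with a median of -0.63. Their medians at the other steps were -0.13 from Stage 1 to Stage 2 (0 higher, 18 lower), -0.02 from Stage 2 to Stage 3+DMSO (5 higher, 4 lower) and -0.15 from Stage 1 to Stage 3+DMSO (1 higher, 23 lower). Which members are copies of ribosomal protein genes is not given by the files, so the part of these reads in the members' values was not tested.

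**Figure D2:**
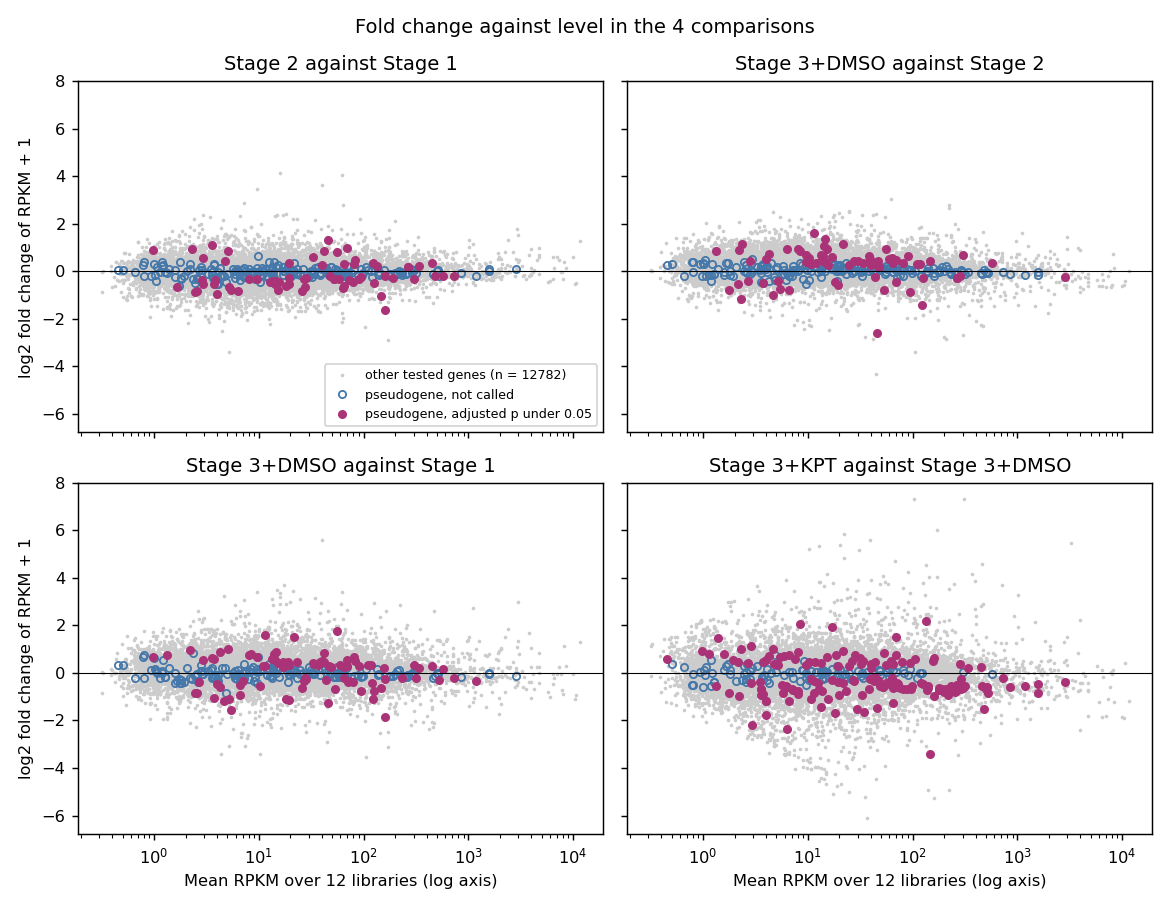
Log2 fold change of RPKM + 1 against mean RPKM over 12 libraries (log axis) in the 4 comparisons, with 12782 other tested genes in grey, members that were called as filled points and the other members as open circles. With KPT, 36 of 48 members at or above 100 RPKM are lower, while members under 10 RPKM split 24 against 24.

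Of the 10 most abundant members, 9 fell with KPT. At a mean of at least 100 RPKM, 36 of 48 members and 42.3% of all tested genes were lower. ENSSSCG00000000207 fell by 0.38 (SE 0.07, limma adjusted p = 0.00054), LOC100624650 by 0.47 (adjusted p = 0.000324) and ENSSSCG00000016735 by 0.83 (adjusted p = 5.67e-06). Among the others the log2 fold change ran from -0.85 in ENSSSCG00000009133 to -0.22 in ENSSSCG00000030593, whose call was lost after quantile normalization (-0.09, adjusted p = 0.297). The exception was ENSSSCG00000010221, with 621, 658.9 and 615.9 RPKM with DMSO and 643.7, 614.8 and 566.2 with KPT, which overlap (-0.06, adjusted p = 0.407). This member instead rose from Stage 2 to Stage 3+DMSO, from 490.0, 492 and 511.3 RPKM, by 0.34 (adjusted p = 0.000377).

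The 28 members with a gene symbol had 14 calls with KPT (6 higher, 8 lower), 9 from Stage 1 to Stage 2 (5 and 4), 14 from Stage 2 to Stage 3+DMSO (10 and 4) and 15 from Stage 1 to Stage 3+DMSO (10 and 5). After median-ratio rescaling the last pair of splits became 4 and 8, and 7 and 7, and after quantile normalization 3 and 7, and 7 and 7. Called symbols thus made up 50.0% with KPT, 32.1% from Stage 1 to Stage 2, 50.0% from Stage 2 to Stage 3+DMSO and 53.6% from Stage 1 to Stage 3+DMSO, beside 60.0%, 40.7%, 44.1% and 47.7% of all tested genes. There were 6 symbols with no call in any comparison: ZNF358, ZNF865, EXOC8, ARMCX5, ZNF660 and PABPC4L. Among all 264 members 59 had none, and among the 13046 tested genes 1994 had none.

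FZD2, a Frizzled receptor for Wnt ligands, had 26.1, 28.4 and 31.7 RPKM in Stage 1, 45.2, 44.2 and 41.7 in Stage 2, 41.0, 36.7 and 37.5 in Stage 3+DMSO, and 19.1, 21.1 and 18.0 in Stage 3+KPT. Stage 2 lay above Stage 1 and the KPT libraries lay below all others, with no overlap. The log2 fold changes were 0.59 from Stage 1 to Stage 2 (SE 0.09, limma adjusted p = 0.000188) and -0.95 with KPT (SE 0.09, adjusted p = 8.76e-07). FOXC2, a forkhead transcription factor of vascular and valve development, had 16.3, 15.6 and 12.0 RPKM with DMSO and 8.70, 9.12 and 8.56 with KPT, and fell by 0.67 (adjusted p = 0.00162). Its change from Stage 1 to Stage 2 was -0.44 (adjusted p = 0.0278), and that call was lost on both other scales (adjusted p = 0.0568 and 0.0873) and without Stage 1 replicate 1 or 2 or Stage 2 replicate 2 or 3 (0.0531 to 0.117).

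NDN encodes necdin, an imprinted suppressor of growth. It had 28.4, 29.7 and 28.2 RPKM in Stage 1, 34.3, 33.5 and 35.9 in Stage 2, 38.0, 41.6 and 45.6 in Stage 3+DMSO, and 53.7, 55.9 and 51.8 in Stage 3+KPT. The 4 groups followed each other upward without overlap. NDN rose by 0.25 from Stage 1 to Stage 2 (adjusted p = 0.0129), by 0.52 from Stage 1 to Stage 3+DMSO (adjusted p = 7.88e-05) and by 0.36 with KPT (SE 0.07, adjusted p = 0.000755). The step from Stage 2 to Stage 3+DMSO was 0.26 (adjusted p = 0.00995) on the deposited scale but 0.10 after median-ratio rescaling (adjusted p = 0.286).

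IER5 and IER5L belong to the immediate early response family, and both are members here. IER5L had 65.1, 60.2 and 56.1 RPKM in Stage 2, 36.6, 33.0 and 35.1 in Stage 3+DMSO, and 65.1, 63.4 and 60.9 in Stage 3+KPT. The DMSO libraries were the low ones, below those of every other group. IER5L fell by 0.77 from Stage 2 to Stage 3+DMSO (SE 0.07, adjusted p = 3.77e-06) and rose by 0.84 with KPT (SE 0.07, adjusted p = 4.3e-07). IER5 went the other way at the first of these steps, from 56.6, 44.7 and 43.6 RPKM in Stage 2 to 60.8, 70.0 and 77.9 in Stage 3+DMSO, a rise of 0.52 (adjusted p = 0.00427). Its values with KPT, 68.0, 64.3 and 59.2 RPKM, overlapped those with DMSO.

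OTUD1, a deubiquitinase, had 5.75 to 7.11 RPKM in the 6 libraries of Stages 1 and 2, then 12.9, 26.5 and 26.2 in Stage 3+DMSO and 11.6, 11.3 and 10.3 in Stage 3+KPT. Stage 3+DMSO replicate 1 lay well below the other DMSO libraries, though above every KPT library. OTUD1 rose by 1.61 from Stage 2 to Stage 3+DMSO (SE 0.21, adjusted p = 6.07e-05) and fell by 0.85 with KPT (adjusted p = 0.00314). RIOX1, a nucleolar oxygenase that acts on a ribosomal protein, had 11.2, 11.7 and 12.7 RPKM in Stage 1, 7.26, 8.85 and 7.88 in Stage 2, and 16.0, 19.2 and 18.6 in Stage 3+DMSO. It fell by 0.52 (adjusted p = 0.00103) and then rose by 1.07 (SE 0.10, adjusted p = 3.56e-06). With KPT it had 18.3 to 19.8 RPKM, which overlapped the DMSO values.

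PRMT6, an arginine methyltransferase, was higher in Stage 3+DMSO (6.41, 5.70 and 6.36 RPKM) than in Stage 1 (2.90, 3.29 and 2.57), by 0.87 (adjusted p = 0.00827). Its KPT libraries ranged from 2.29 to 6.41 RPKM and overlapped those with DMSO. FBXO34, an F-box protein, rose by 0.35 from Stage 1 to Stage 2 (adjusted p = 0.00641) and by 0.31 with KPT (adjusted p = 0.00751), with group means of 14.8 ± 0.863, 19.2 ± 0.301, 19.3 ± 2.34 and 24.1 ± 0.553 RPKM. PWWP2A, a chromatin protein that binds the histone variant H2A.Z, fell with KPT by 0.66 (adjusted p = 0.000499), from 7.23, 6.73 and 6.89 to 4.84, 3.24 and 4.18 RPKM. GEMIN4, part of the SMN complex, had 9.95 ± 0.430 RPKM in Stage 2 and 13.2 ± 2.06 in Stage 3+DMSO (limma adjusted p = 0.0199). That adjusted p was 0.165 after median-ratio rescaling, 0.342 after quantile normalization and 0.0552 in the 2 groups alone. It was 0.0550 to 0.0898 without Stage 2 replicate 2 or Stage 3+DMSO replicate 2 or 3. SUMO4, a small ubiquitin-like modifier, had 54.6 ± 4.24, 67.6 ± 3.34, 65.6 ± 4.4 and 71.3 ± 6.24 RPKM. Its difference from Stage 1 to Stage 2 was 0.30 (adjusted p = 0.0109), with adjusted p = 0.0523 without Stage 1 replicate 1 and 0.0811 with limma-voom on the recovered reads.

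ACTBL2, an actin-like protein, declined over the whole series, with 30.8, 34.9 and 31.8 RPKM in Stage 1, 23.9, 20.6 and 17.9 in Stage 2, 17.3, 13.4 and 13.5 in Stage 3+DMSO, and 4.92, 4.18 and 2.83 in Stage 3+KPT. No group overlapped the next. It fell by 0.63 from Stage 1 to Stage 2 (adjusted p = 0.00673), by 1.10 from Stage 1 to Stage 3+DMSO (adjusted p = 0.000103) and by 1.67 with KPT (SE 0.16, adjusted p = 1.29e-06). The step between, -0.47 from Stage 2 to Stage 3+DMSO, had an adjusted p of 0.0271, which reached 0.0992 without Stage 2 replicate 1, and it also missed the threshold without Stage 2 replicate 2 or Stage 3+DMSO replicates 2 or 3 (0.0605 to 0.0906). HYLS1, a centriole protein needed for cilia, had 19.9, 17.6 and 17.7 RPKM with DMSO and 9.0, 7.99 and 7.56 with KPT, a fall of 1.08 (SE 0.09, adjusted p = 3.91e-07). It had also fallen by 0.43 from Stage 1 to Stage 2 (adjusted p = 0.00211). HYLS1 lies within PUS3 on the opposite strand, whose own means were 27.6 ± 1.92 RPKM with DMSO and 33.4 ± 2.19 with KPT.

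KRCC1, a lysine-rich coiled-coil protein, was lower in Stage 1 (28.4, 25.5 and 24.7 RPKM) than in any later library (41.3 to 56.4 RPKM), with a rise of 0.86 to Stage 2 (SE 0.11, adjusted p = 0.000101). PTMAP, named as a pseudogene of prothymosin alpha, was the most abundant of the 28, with 269.6 ± 10.4, 287.9 ± 13.7, 251 ± 16.8 and 323.3 ± 28.3 RPKM, and rose by 0.36 with KPT (adjusted p = 0.000862). It is the only member named after a parent, PTMA, which was not analysed here because no row carried that symbol. Its step from Stage 2 to Stage 3+DMSO was -0.20 (adjusted p = 0.0426), and leaving out Stage 2 replicate 1 or 3 or Stage 3+DMSO replicate 1 or 3 took the adjusted p to between 0.0761 and 0.144.

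Of the 6 zinc finger genes, which encode DNA-binding proteins, 3 had no call, beside 59 of all 264 members and 1994 of the 13046 tested genes. ZNF358 was the highest of those 3 at 50.0 to 63.0 RPKM over the 12 libraries. ZNF574 had 12.6 RPKM on average in Stage 3+DMSO and 10.1 in Stage 1, and its calls there, from Stage 2 and with KPT did not hold on every scale. ZNF579 was lower in Stage 3+DMSO (7.66 ± 1.35 RPKM) than in Stage 1 (11.7 ± 0.771 RPKM), by 0.56 (adjusted p = 0.0126, and 0.0505 without Stage 3+DMSO replicate 2). BRWD3, a bromodomain protein with 84 annotated exons, had 1.70 to 3.40 RPKM. It was lowest with DMSO, at 2.26, 1.93 and 1.70 RPKM against 3.03, 2.59 and 3.23 with KPT (0.42, adjusted p = 0.0129, and 0.0518 without Stage 3+KPT replicate 3 and 0.0515 without Stage 3+DMSO replicate 3).

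The immune genes sat in the swine leukocyte antigen region of chromosome 7. MIC-1, a relative of the MHC class I chains, had 52.1, 44.7 and 37.6 RPKM with DMSO and 10.5, 12.7 and 17.9 with KPT, a fall of 1.66 (SE 0.20, adjusted p = 1.54e-05). The values of the 3 groups without KPT overlapped. MIC-1 lies within SLA-8 on the opposite strand, outside its exons. SLA-8 had 62.4 ± 4.82 RPKM with DMSO and 46.9 ± 3.32 with KPT (-0.40, limma adjusted p = 0.000364). SLA-DOB2, an MHC class II chain gene, rested on 26 reads in Stage 2 and 85 in Stage 3+DMSO, and its difference of 1.16 (adjusted p = 0.032) had an adjusted p of 0.0619 after quantile normalization 0.131 without Stage 2 replicate 1, 0.116 without Stage 3+DMSO replicate 1 and 0.0575 without Stage 3+DMSO replicate 3.

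**Figure D3:**
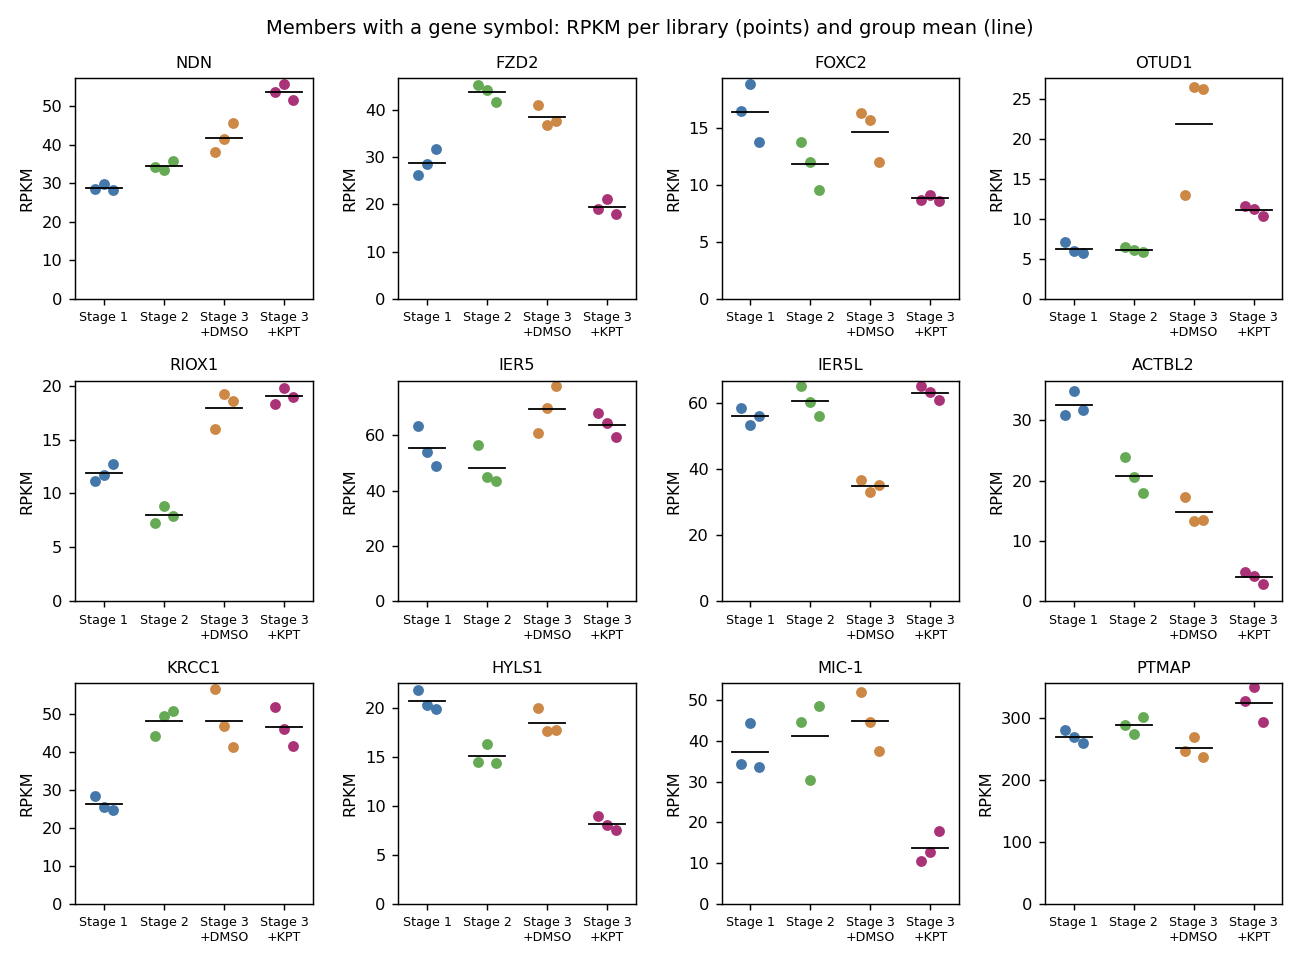
RPKM in each of the 12 libraries (points) and the group mean (line) for 12 members with a gene symbol, by stage and treatment. NDN climbs from 28.2 to 55.9 RPKM over the groups, ACTBL2 declines from 34.9 to 2.83, and IER5L is low in Stage 3+DMSO alone.

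Since no row of the parent of PTMAP was found, 5 members were set beside a relative by name, chosen after names and values were seen. With 3 libraries against 3 the exact permutation test on the difference between the changes cannot go below 0.1, and 20 differences were computed. ACTB, the cytoplasmic beta-actin, fell with KPT by 0.35 (limma adjusted p = 0.00207) where ACTBL2 fell by 1.67, a difference of -1.33 (exact permutation p = 0.1, adjusted over the 20 differences 0.222). ACTB was at 3041 RPKM on average with DMSO and ACTBL2 at 14.7. MIC-2, the protein-coding neighbour in name of MIC-1, fell by 1.65 (adjusted p = 2.35e-07) from 68.7 RPKM on average, and its change differed from that of MIC-1 by -0.01 (exact permutation p = 1.0). IER5L and IER5 differed by -1.29 in their change from Stage 2 to Stage 3+DMSO (exact permutation p = 0.1, adjusted 0.222). PABPC4, a poly(A)-binding protein, fell with KPT by 1.18 (adjusted p = 2.93e-09), while PABPC4L had 0.816, 1.79 and 2.1 RPKM with DMSO and 1.73, 1.30 and 1.45 with KPT (-0.01, adjusted p = 0.975), a difference of 1.17 (exact permutation p = 0.1, adjusted 0.222). SUMO2 differed from Stage 1 to Stage 2 by 0.20 (adjusted p = 0.0288) and SUMO4 by 0.30, a gap of 0.10 (exact permutation p = 0.4).

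Outside the named genes, the members with the largest changes had no symbol. ENSSSCG00000015460 (chromosome 9, 121473081 to 121473454 as deposited, 372 bp of exon in 2 parts) had 247.7, 263.2 and 282.2 RPKM in Stage 1, 114.9, 132.6 and 138.4 in Stage 2, 199.3, 172.9 and 145.1 in Stage 3+DMSO, and 15.6, 17.1 and 13.7 in Stage 3+KPT. The KPT libraries were far below all others, and Stage 1 was the highest group. It fell by 1.04 from Stage 1 to Stage 2 (SE 0.11, limma adjusted p = 2.6e-05) and by 3.39 with KPT (SE 0.11, adjusted p = 1.23e-10). This is the largest change of any member on the log2(RPKM + 1) scale, which holds back that of low genes, and its reads numbered 3895 with DMSO and 348 with KPT.

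Several others fell with KPT. ENSSSCG00000002261 went from 595.3, 588.5 and 508.6 RPKM with DMSO to 198.3, 202.8 and 191.3 with KPT, by 1.51 (SE 0.07, adjusted p = 1.59e-09). ENSSSCG00000008506 went from 41.0, 35.6 and 31.6 to 11.8 ± 1.47 RPKM, by 1.54 (adjusted p = 2.23e-07). Lower in level, ENSSSCG00000025275 fell by 2.36 (adjusted p = 4.34e-07), from 188 reads in the DMSO group to 20 in the KPT group, and ENSSSCG00000001776 by 1.76 (adjusted p = 5.84e-07), from 342 reads to 52. The rule that named these 4 members took only those without overlap between the 2 groups, so their lack of overlap is no separate result. CH242-209L2.1, which overlaps the opposite-strand gene CH242-209L2.2, had 5.05, 4.04 and 3.88 RPKM with DMSO and 0, 0.524 and 0 with KPT, 113 reads against 5 (-2.20, adjusted p = 1.14e-06).

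On the rising side, CH242-358M12.3 stood out. This 253-bp single exon on X (51742100 to 51742352 as deposited) had 60.2, 70.8 and 62.9 RPKM in Stage 1, 72.3, 77.9 and 76.6 in Stage 2, 69.8, 73.4 and 71.5 in Stage 3+DMSO, and 327.7, 336.4 and 312.5 in Stage 3+KPT. The 9 libraries without KPT lay between 60.2 and 77.9, and the change with KPT was 2.17 (SE 0.07, adjusted p = 5.26e-11). CH242-358M12.4, named after the same clone, lies on the same strand of X (51727860 to 51728090) and did not share the pattern: it had 347.1, 378.9 and 341.1 RPKM with DMSO and 375.0, 374.3 and 332.9 with KPT, which overlap (0.02, adjusted p = 0.832). It rose from Stage 2, at 226.3, 234.9 and 205.5 RPKM, to Stage 3+DMSO by 0.68 (adjusted p = 1.75e-05).

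ENSSSCG00000024832 rose from 4.35, 4.19 and 4.94 RPKM with DMSO to 23.0, 18.4 and 24.6 with KPT, by 2.06 (SE 0.14, adjusted p = 8.57e-08). ENSSSCG00000008623 rose from 47.9, 41.8 and 51.8 to 134.2, 133.2 and 139.9 RPKM, by 1.51 (SE 0.10, adjusted p = 7.42e-08), and had already gone from 31.9 ± 5.29 RPKM in Stage 1 to 64.2 ± 3.03 in Stage 2, a rise of 1.00 (adjusted p = 1.85e-05). CH242-239N4.4 rose from 12.5, 7.33 and 11.6 to 40.5, 47.6 and 39.6 RPKM, by 1.95 (SE 0.17, adjusted p = 6.82e-07). It overlaps ZMYM3 in part on the same strand, reaches beyond the span of that gene and shares 155 bp with an exon of it. ZMYM3 as a whole had 8.88 ± 0.190 RPKM with DMSO and 11.04 ± 0.538 with KPT (0.28, limma adjusted p = 0.006). The ZMYM3 exon that holds the shared bases had 4.34 ± 1.60 RPKM with DMSO and 15.7 ± 0.942 with KPT, so it was higher along with the member. ENSSSCG00000011758 rose at the last 2 steps, from 8.76, 11.5 and 9.80 RPKM in Stage 2 to 24.4, 20.6 and 24.6 with DMSO, by 1.14 (adjusted p = 7.32e-05), and to 38.7, 56.7 and 40.9 with KPT, by 0.93 (adjusted p = 0.000159).

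Other members named for their changes between stages include some that also changed with KPT. ENSSSCG00000021104, whose exons span 2268 bp, fell from 385.8, 358.0 and 363.1 RPKM in Stage 1 to 134.1, 118.2 and 108.3 in Stage 2, by 1.61 (SE 0.08, adjusted p = 1.95e-07), and had 111.4, 99.4 and 97.9 in Stage 3+DMSO. KPT took it to 54.0, 53.0 and 47.2 RPKM, a further fall of 0.99 (adjusted p = 5.27e-07). ENSSSCG00000010936 was the member that changed most between Stage 2 and Stage 3+DMSO, from 119.9, 116.7 and 106.2 to 14.8, 24.0 and 17.1 RPKM, by -2.58 (SE 0.15, adjusted p = 1.26e-07). It had risen by 1.33 from 38.6, 45.3 and 51.1 RPKM in Stage 1 (adjusted p = 2.52e-05), so Stage 2 was the high group, and it fell again with KPT to 6.26, 5.99 and 5.47 RPKM, by 1.48 (adjusted p = 2.16e-06).

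ENSSSCG00000023542 rose through the stages, with 24.2, 21.8 and 22.3 RPKM in Stage 1, 45.1, 39.8 and 38.3 in Stage 2 and 83.6, 80.5 and 74.5 in Stage 3+DMSO. The rises were 0.82 (adjusted p = 8.49e-06) and 0.94 (SE 0.08, adjusted p = 2e-06), and the KPT libraries, at 76.4 to 85.7 RPKM, overlapped those with DMSO. Its annotation has a gap of 1233 bp between 2 exons. CH242-270H1.2, a single exon of 1260 bp on X, fell from 166.4, 189.2 and 226.7 RPKM in Stage 2 to 74.0, 69.9 and 69.4 in Stage 3+DMSO, by 1.43 (SE 0.11, adjusted p = 8.46e-07), and had 64.4 to 78.7 RPKM with KPT. ENSSSCG00000025515 also fell at that step, from 120.5, 121.7 and 111.7 to 61.3, 64.7 and 68.0 RPKM, by 0.86 (adjusted p = 6.89e-07), and rose with KPT to 86.9, 89.6 and 86.7 RPKM, by 0.44 (adjusted p = 5.53e-05). ENSSSCG00000025461 had the opposite course, from 7.98, 7.83 and 7.55 RPKM in Stage 2 to 19.1, 20.2 and 25.2 in Stage 3+DMSO, a rise of 1.35 (adjusted p = 2.39e-06).

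**Figure D4:**
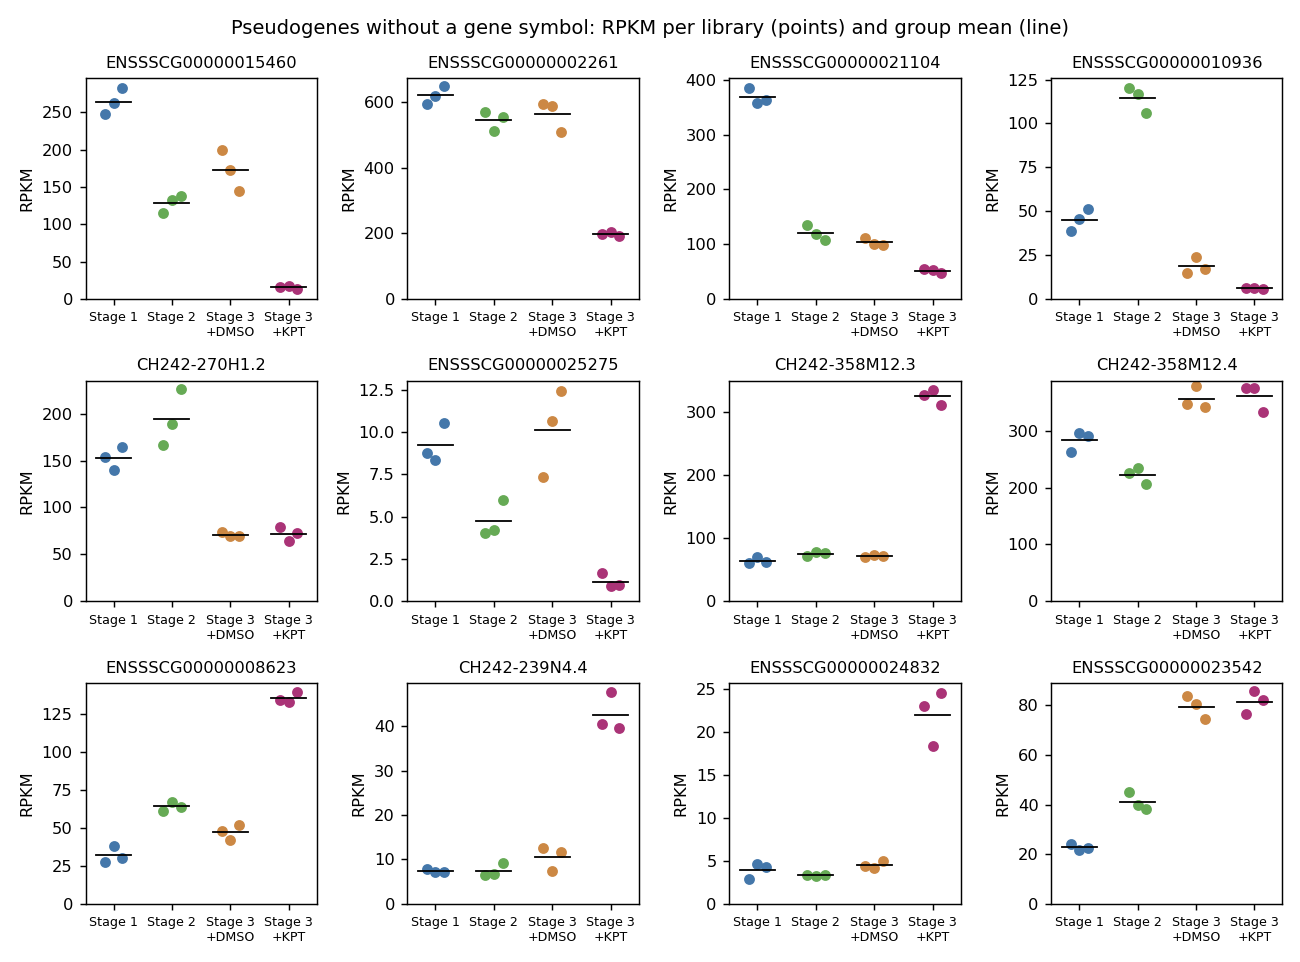
RPKM in each of the 12 libraries (points) and the group mean (line) for 12 members without a gene symbol, by stage and treatment. ENSSSCG00000015460 is at 13.7 to 17.1 RPKM with KPT, CH242-358M12.3 rises to between 312.5 and 336.4, and CH242-358M12.4, named after the same clone, does not separate DMSO from KPT.

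The 12 members called in all 4 comparisons were NDN, ACTBL2, ENSSSCG00000010936, ENSSSCG00000015460, ENSSSCG00000008623, ENSSSCG00000001776, ENSSSCG00000006978, ENSSSCG00000017377, ENSSSCG00000025502, ENSSSCG00000026545, ENSSSCG00000027586 and a single clone-named exon of 1730 bp on X. For ENSSSCG00000006978 the groups stood at 9.39 ± 0.525, 5.01 ± 1.02, 2.53 ± 0.438 and 4.54 ± 0.321 RPKM, so it fell over the stages (by 1.56 from Stage 1 to Stage 3+DMSO, adjusted p = 1.47e-06) and rose with KPT by 0.65 (adjusted p = 0.000925). ENSSSCG00000025502 stood at 183.9 ± 5.18, 130.9 ± 9.87, 107.9 ± 15.1 and 76.6 ± 8.41 RPKM and was lower in each group than in the one before. Single libraries or the choice of scale decided some of these calls. From Stage 2 to Stage 3+DMSO, that of ENSSSCG00000015460 was lost after median-ratio rescaling (limma adjusted p = 0.0867) and that of ENSSSCG00000026545 after quantile normalization (0.0512). That of ENSSSCG00000001776 was lost on both of these scales (0.0566 and 0.105). From Stage 1 to Stage 3+DMSO, that of ENSSSCG00000017377 was lost without Stage 1 replicate 1 or 3 or Stage 3+DMSO replicate 2 or 3 (0.0607 to 0.127), and that of ENSSSCG00000026545 without any Stage 1 library or Stage 3+DMSO replicate 3 (0.0719 to 0.189). That of ENSSSCG00000001776 was lost without Stage 1 replicate 1 or 2 or Stage 3+DMSO replicate 2 or 3 (0.0503 to 0.0948). With KPT, that of ENSSSCG00000027586 was lost without Stage 3+DMSO replicate 2 or 3 or Stage 3+KPT replicate 1 or 2 (0.0574 to 0.0953). The step of ENSSSCG00000025502 from Stage 2 to Stage 3+DMSO (-0.28, adjusted p = 0.0402) lost its call without Stage 2 replicate 1 or 2 or Stage 3+DMSO replicate 1 (0.0810 to 0.152). Close by on chromosome 13, ENSSSCG00000011240 rose over the same stages, from 2.27 ± 0.278 RPKM in Stage 1 to 4.87 ± 0.368 in Stage 2 (0.85, adjusted p = 0.000137) and 5.56 ± 0.664 in Stage 3+DMSO.

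All 5 LOC members, which RefSeq lists as pseudogenes or transcribed pseudogenes, were called with KPT, 3 lower and 2 higher, where 60.0% of all tested genes were called. Beside LOC100624650, LOC106506067 fell from 221.2 ± 36.1 to 127 ± 23.0 RPKM (-0.80, adjusted p = 0.000143) and LOC100738817 from 112.4 ± 7.0 to 84.4 ± 10.4 RPKM (-0.42, adjusted p = 0.0017). LOC100513317 rose from 150.4 ± 12.2 to 212.4 ± 16.5 RPKM (0.49, adjusted p = 5.73e-05), and LOC100523928 from 1.17 ± 0.125 to 2.75 ± 0.459 RPKM (0.78, adjusted p = 0.00104). LOC106506067 lies within CCSER2 on the opposite strand, which had 53.6 ± 5.47 RPKM with DMSO and 34.8 ± 3.33 with KPT.

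Members at the floor of detection included a cluster at the interferon alpha genes of chromosome 1, where the antiviral type I interferons are encoded. ENSSSCG00000024198, which shares its 567 bp of exon with an annotated interferon alpha gene, had 0.119 ± 0.136 RPKM in Stage 1, 0.159 ± 0.0341 in Stage 2, 0.411 ± 0.341 with DMSO, and 1.13, 1.03 and 1.14 RPKM with KPT. It entered the list through the KPT libraries alone, and its difference of 0.60 (adjusted p = 0.0113, and 0.0514 without Stage 3+DMSO replicate 3) is a description. CH242-142L3.4 and CH242-142L3.11, in the same cluster, stayed between 0 and 2.47 RPKM with no call. CH242-414D14.6, a single exon within IFN-ALPHA-14 on the same strand, had 1 read in Stage 1, 33 in Stage 2, 22 with DMSO and 74 with KPT. With KPT it had 1.94, 2.12 and 2.42 RPKM, above the 0.731, 0.630 and 0.605 with DMSO (0.93, adjusted p = 0.00706, and 0.0516 with a pseudocount of 0.1). Its difference from Stage 1 to Stage 2 was 0.88 (adjusted p = 0.0154, and 0.0693 and 0.0584 without Stage 2 replicate 2 or 3), and that from Stage 1 to Stage 3+DMSO was 0.69 (adjusted p = 0.0421), a call lost on both other scales and without any single library of those groups. ENSSSCG00000030133 on chromosome 8, the other member that passed through the KPT group alone, had 0.578 to 0.832 RPKM with DMSO and 3.18, 2.80 and 5.41 with KPT.

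Together the members took under 1% of the reads counted on genes. The share was 0.870%, 0.872% and 0.894% in Stage 1, 0.779%, 0.800% and 0.814% in Stage 2, 0.816%, 0.806% and 0.737% in Stage 3+DMSO, and 0.648%, 0.654% and 0.605% in Stage 3+KPT. Stage 1 lay above and the KPT libraries below all others, while Stage 2 and Stage 3+DMSO overlapped. The group means were 0.879 ± 0.0130%, 0.798 ± 0.0178%, 0.786 ± 0.0429% and 0.636 ± 0.0265% (SD, n = 3). The differences were -0.0811 percentage points from Stage 1 to Stage 2, -0.0927 from Stage 1 to Stage 3+DMSO and -0.150 with KPT, each with a two-sided exact permutation p of 0.1, the smallest that 3 against 3 can give (0.133 adjusted over the 4 comparisons). From Stage 2 to Stage 3+DMSO the difference was -0.0116 points (exact permutation p = 0.9), and 0.0130 without Stage 3+DMSO replicate 3.

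**Figure D5:**
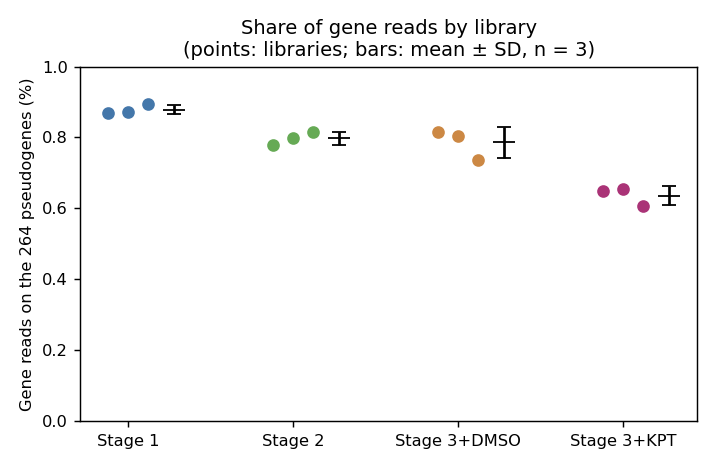
Share (%) of the reads counted on genes that fell on the 264 members, per library (points), with the mean and SD of each group (bars, n = 3). Stage 1 lies between 0.870% and 0.894%, and the KPT libraries, between 0.605% and 0.654%, lie below the 9 others.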

How the data were processed

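RNA was measured in 12 libraries, made from 500 ng of RNA each with a stranded messenger RNA kit, per the labels' protocols. The submitters' processing notes name TopHat2 2.1.0 as a tool. Not given in the sources used here are the counting program, the build and the annotation. RPKM values of 22861 genes, and of exons, were deposited by the authors, and coordinates are printed as deposited. Multiplying RPKM by exon length and library total gave whole reads within 1.69e-09 of a read. These gave the read counts, the read shares and the limma-voom alternative. Reads summed over genes came to 1.75 to 1.81 times the library total, for a reason the sources do not give, so they are not counts of molecules.

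The test was limma 3.58.1 in R 4.3.3 with an expression trend on log2(RPKM + 1), all 12 libraries in 1 fit with no block, over genes with RPKM of at least 1 in at least 3 libraries, with Benjamini-Hochberg adjustment over all of them. The script was tested on simulated data. A value after ± is the SD over 3 libraries.

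Members, relatives and marker lists were chosen with earlier results of these data known. Members are named by a rule: the 10 highest by level, up to 10 called in each direction per comparison without overlap, those with a parent and those nearest the minimum. All 28 with a gene symbol, the LOC members, those called in all 4 comparisons, and CH242-358M12.4 and the interferon cluster were added after their values were seen, and some members the rule takes are given only in counts. RefSeq biotypes came from a table of assembly Sscrofa11.1, matched by symbol. No sequence of the members was used here. Alternatives were a pseudocount of 0.1, no minimum, a minimum of 5, median-ratio rescaling, quantile normalization, the 2 groups alone, a replicate block, limma-voom, leaving out each library, and, added after seeing the data, same-read copies counted once.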

Additional observations from a re-analysis of the deposited data

How the results depend on the processing

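Of 203 called values of named members, 143 kept their call under every alternative they could be fitted in, 60 lost it under at least 1 and 0 changed direction. For Stage 3+DMSO against Stage 2, the count of higher members was 26 and of lower ones 52 after median-ratio rescaling, and 28 and 39 after quantile normalization, against 49 and 22. For Stage 3+DMSO against Stage 1 they were 31 and 67 after median-ratio rescaling, with 63 lower after quantile normalization, against 50 and 38. The cause was not tested. Leaving out 1 library at a time, with a variance that the fit pools over groups, the higher and lower counts ranged from 15 to 27 and 31 to 38 (Stage 2 against Stage 1), 38 to 49 and 16 to 23 (Stage 3+DMSO against Stage 2), 37 to 48 and 30 to 44 (Stage 3+DMSO against Stage 1), and 46 to 54 and 94 to 103 (KPT). As a share of summed RPKM in place of reads, the members differed by -0.143 points (Stage 2 against Stage 1), -0.163 (Stage 3+DMSO against Stage 1) and -0.454 (KPT). The share from Stage 2 to Stage 3+DMSO turned to 0.00174 points without the most abundant member and to 0.0130 without Stage 3+DMSO replicate 3. Without single libraries the share differed by -0.0894 to -0.0717 points (Stage 2 against Stage 1), -0.0264 to 0.0130 (Stage 3+DMSO against Stage 2), -0.107 to -0.0681 (Stage 3+DMSO against Stage 1) and -0.175 to -0.135 (KPT). With the replicate number as a block, the counts in that same order of comparisons were 21 and 42, 52 and 24, 49 and 39, and 54 and 101. Over 18 pairs of libraries with the same number the correlation of deviations ran from -0.131 to 0.0748. Of the 12 libraries, 3 correlated best with their own number. No pairing by number was seen, but with 3 libraries a group this cannot exclude that libraries of the same number share an origin. A minimum of 5 RPKM left 210 members, and 34 of the 203 values were not fitted there. Counting error limits most the 6 members with under 100 reads.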
